A study of Drosophila melanogaster with 6 samples.

Results

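The cluster described here consists of the *Drosophila melanogaster* microRNA (miRNA) hairpins dme-mir-283, dme-mir-304 and dme-mir-12. Its members were taken by precursor name from a deposited table of ovarian miRNA counts: 6 of 474 rows, the 5p and 3p arm of each of 3 hairpins out of 256. In the BDGP6 annotation, a later genome release than the BDGP5 build named for the files, all 3 hairpins lie on chromosome X in the same intron of Gmap, a gene for a Golgi protein. They stand in the order mir-283, mir-304, mir-12, on the same strand as Gmap, and the stretch is intronic in every annotated Gmap transcript.

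A miRNA hairpin is cut from its primary transcript by Drosha and then by Dicer, and 1 of its arms is preferentially loaded into an Argonaute protein, which it guides to messenger RNAs with matching sites. Hairpins in 1 transcript can be made together, yet each arm then has its own stability, so the members of a cluster need not have equal levels. miR-12 and miR-283 are known in the fly wing for repressing the Hedgehog pathway components costal-2, fused and smoothened. In the ovary, Hedgehog signalling acts on follicle stem cells.

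Ovaries came from 7-day-old adults kept at 25 degrees, of 3 genotypes with 2 libraries each, all on a w1118 strain background. One mutant, labelled mei-p26, affects mei-P26, whose product is a germline TRIM-NHL protein. The other mutant, labelled wh7, affects wuho, which encodes a WD40 repeat protein. The w1118 flies, a white-eyed strain labelled wild type, were the control. The labels do not give the mei-p26 allele, the number of flies pooled or whether duplicates are separate dissections, so p-values speak only of how far these libraries lie apart, and that distance may be technical. mei-P26 and wuho are themselves annotated on chromosome X, and a messenger RNA is not measured in a miRNA library, so neither mutation could be checked here.

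Library totals were 229276 and 249262 counts in mei-p26, 149520 and 228031 in wh7, and 152848 and 144175 in w1118, and duplicates differed by more than sampling noise in each genotype. Ovarian miRNAs were abundant in all 6 libraries: the later-stage follicle cell list (miR-318, miR-994, miR-989) summed to 177477 and 135245 CPM in mei-p26, 331909 and 304385 CPM in wh7, and 379633 and 316381 CPM in w1118. In that follicle cell list, edgeR called 3 of 5 tested arms lower in mei-p26 against w1118, beside 12.7% of all rows. Their log2 fold changes were -2.46 for miR-318-3p, -2.40 for miR-994-5p and -2.94 for miR-994-3p. The other tested arms were miR-989-3p at -0.40 (edgeR adjusted p = 0.192) and miR-989-5p at 1.20 (adjusted p = 0.156). In wh7, 0 of the 5 were called, beside 11.3% of all rows called higher and 4.0% lower. The germline list (bantam, miR-184) held 57726 and 54262 CPM in mei-p26, 46749 and 54702 CPM in wh7, and 75220.4 and 59133 CPM in w1118. Of its 4 tested arms edgeR called 1 in mei-p26, as higher, beside 21.3% of all rows, and 0 in wh7. The called arm was miR-184-5p, with a log2 fold change of 1.26 (adjusted p = 0.0341). Of the nervous system list, at least 6 of 8 arms had 0 counts in each library, both arms of miR-124 in all 6, and its sum was at most 54.6 CPM. The muscle list (miR-1, miR-133) held 22628 and 27594 CPM in mei-p26, 23088 and 24072 CPM in wh7, and 16859 and 10992.5 CPM in w1118. Nearly all of it was miR-1-3p, with miR-133-5p at 0 in every library. Of its 2 tested arms edgeR called miR-1-3p higher in both mutants, beside 21.3% of all rows in mei-p26 and 11.3% in wh7. The log2 fold change of miR-1-3p was 0.85 in mei-p26 (adjusted p = 0.0106) and 0.76 in wh7 (adjusted p = 0.0386). The gut and Malpighian tubule list (miR-281) held 238 and 308 CPM in mei-p26, 3934 and 4669 CPM in wh7, and 2112 and 2350.4 CPM in w1118. All 3 of its tested rows were called lower in mei-p26, beside 12.7% of all rows, and 2 higher in wh7, beside 11.3%. Those 2 rows are miR-281-3p, counted on both its hairpins. Its log2 fold change was -2.96 in mei-p26 (edgeR adjusted p = 1.44e-07) and 0.93 in wh7 (adjusted p = 0.0217). The part these tissues take in the results below was not tested. CPM here is the count brought to a common library size after scaling by TMM, a trimmed mean of ratios between libraries.

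The cluster held between 2.35% and 3.06% of the miRNA counts in each library. It took 2.83% (95% Wilson interval 2.76 to 2.90) and 3.03% (2.97 to 3.10) of all counts in mei-p26, 2.35% (2.27 to 2.42) and 2.73% (2.66 to 2.80) in wh7, and 3.06% (2.97 to 3.14) and 2.71% (2.62 to 2.79) in w1118. These intervals cover counting error only, and PCR copies are not independent molecules. The mei-p26 shares lay inside the range of the w1118 duplicates, and wh7 replicate 1 had the lowest share of the 6. In every library between 97.0% and 98.8% of the cluster's counts were on the 5p arms. On the CPM scale the 6 arms summed to 26408 ± 282 in mei-p26, 25959.5 ± 2884 in wh7 and 31411 ± 4878 in w1118 (mean ± SD, n = 2 each). Both mei-p26 sums (26607 and 26208) lay below both w1118 sums (34860 and 27961), while wh7 (23920 and 27999) overlapped w1118. Single rows without overlap made up 65.3% in mei-p26 against w1118, and whether the sums differ was not tested.

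miR-12-5p was the main product of the cluster, from 63.4% to 66.7% of its counts in all 6 libraries, and ranked between 12 and 15 of 474 rows by count. miR-283-5p ranked between 30 and 35, and miR-304-5p between 31 and 43. Each read counts once whatever the length of the miRNA, but small RNAs differ in how well they ligate to adaptors, so the order of levels between sequences is a description. In both mutants that order was miR-12-5p, miR-283-5p, miR-304-5p in each library. In w1118 the middle and lower place changed hands, with miR-304-5p above miR-283-5p in replicate 1 and below it in replicate 2.

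**Figure D1:**
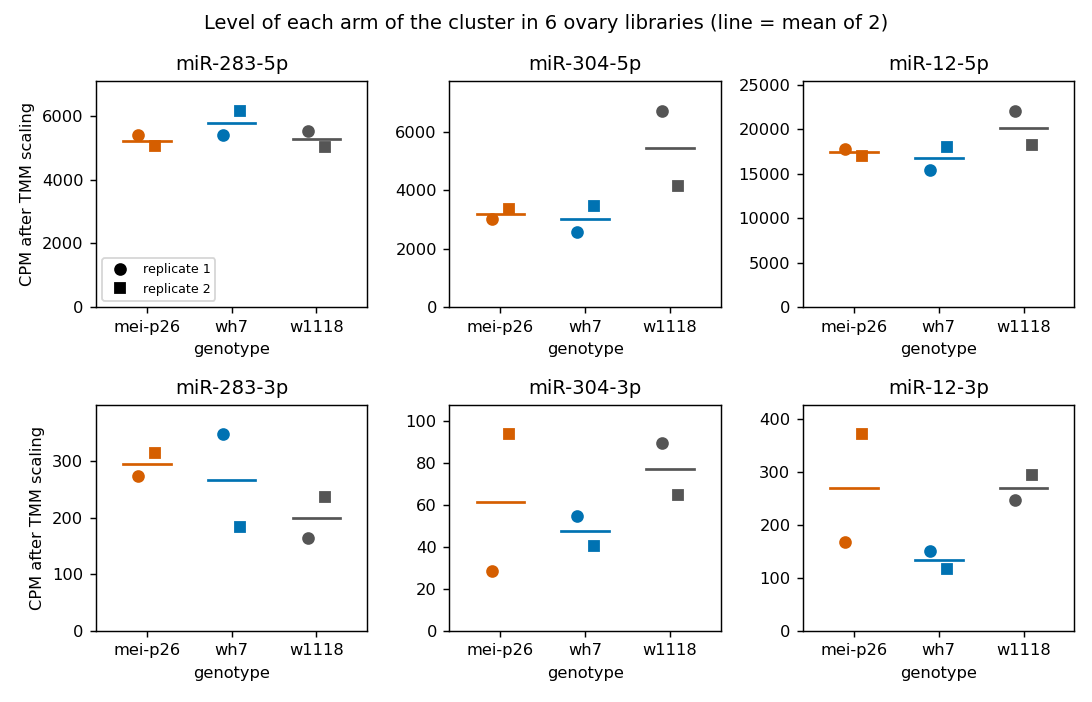
CPM after TMM scaling (y axis, from 0) of each arm of the cluster in mei-p26, wh7 and w1118 ovaries (x axis), with replicate 1 as a circle, replicate 2 as a square and the mean of 2 as a line. For miR-304-5p all 4 mutant libraries lie between 2584 and 3455 CPM, below both w1118 libraries at 6732 and 4156 CPM.

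miR-304-5p, the more abundant arm of the middle hairpin, was the member called lower in both mutants in the reported fit. That call depended on the setting, as given below. It had 735 and 966 counts in mei-p26, 379 and 768 in wh7, and 902 and 580 in w1118. Scaled, that was 3012 and 3347 CPM in mei-p26, 2584 and 3455 CPM in wh7, and 6732 and 4156 CPM in w1118. Both mutants lay wholly below w1118 and overlapped each other, and the duplicates of w1118 were farther apart than those of either mutant. The plot of levels by genotype shows this gap between the w1118 duplicates.

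In mei-p26, miR-304-5p averaged 3179 ± 237 CPM, against 5444 ± 1821 CPM in w1118 (mean ± SD, n = 2 each). The log2 fold change was -0.78 ± 0.27 (SE; edgeR quasi-likelihood test, adjusted p = 0.0362), with a 95% interval from -1.35 to -0.20. In wh7 it averaged 3020 ± 616 CPM against the same w1118 mean, a log2 fold change of -0.85 ± 0.28 (adjusted p = 0.0394; interval -1.42 to -0.27). Both comparisons use the same 2 w1118 libraries and are not independent of each other. Set directly against wh7, mei-p26 differed by a log2 fold change of 0.073 ± 0.27 (adjusted p = 0.895; interval -0.50 to 0.64), so a difference between the mutants of up to about that interval's ends could not be seen. In whole ovaries, fewer cells that make a miRNA and less of it per cell cannot be told apart.

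The call was lost in most fits that left out 1 library: in 5 of 6 for mei-p26 (adjusted p = 0.0624 to 0.435) and in 4 of 6 for wh7 (adjusted p = 0.0934 to 0.649), including fits without a library of the genotype outside the comparison. The size of the log2 fold change moved most with the w1118 library left out. Without w1118 replicate 1 the log2 fold change was -0.40 in mei-p26 (adjusted p = 0.435) and -0.34 in wh7 (adjusted p = 0.649); without w1118 replicate 2 it was -1.38 in mei-p26 (adjusted p = 0.00480) and -1.34 in wh7 (adjusted p = 0.0143). The value stayed negative under all 14 alternatives in both mutants, and adjusted p was under 0.05 in 7 of them for mei-p26 and 6 for wh7. In the authors' deposited table the signed fold change of miR-304-5p was -1.40 in mei-p26 (adjusted p = 0.145) and -1.68 in wh7 (adjusted p = 0.0268). These are ratios with a sign, not log2 values. As a ratio of w1118 over mutant, the reported fit gave 1.71 for mei-p26 and 1.80 for wh7. The authors' values thus call miR-304-5p in wh7 alone. Whether the mutants differ was tested only in the comparison above.

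**Figure D2:**
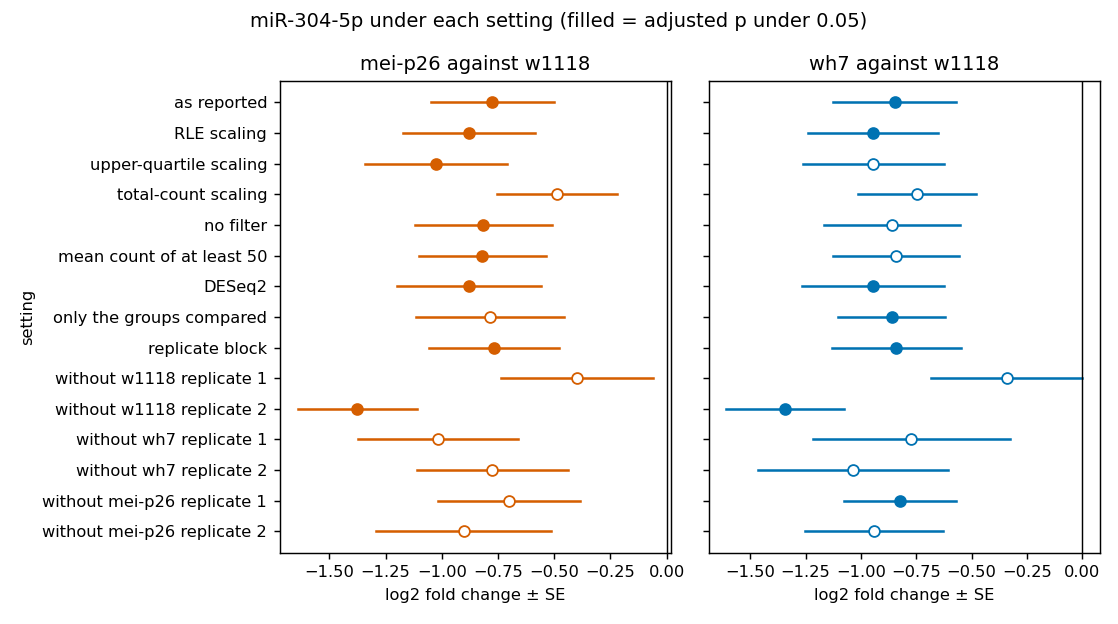
Log2 fold change of miR-304-5p ± SE (x axis) in mei-p26 and in wh7 against w1118 under the reported setting and each alternative (y axis), filled where adjusted p is under 0.05. All points are below 0, nearest to it without w1118 replicate 1 (-0.40 and -0.34) and farthest without w1118 replicate 2 (-1.38 and -1.34).

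Scaling moved the fold change of miR-304-5p together with that of all miRNAs. In mei-p26 against w1118 the median log2 fold change of all 150 tested rows was 0.084 with TMM, 0.35 with total counts and -0.14 with upper-quartile scaling, shifts of 0.27 and -0.23. Relative to that median, miR-304-5p stood at -0.86 with TMM, -0.87 with RLE, -0.89 with upper-quartile and -0.84 with total-count scaling. In wh7 the same difference was -0.93, -0.95, -0.97 and -0.90. A change of scaling adds nearly the same amount to every row, so these differences had to stay nearly equal. They say nothing on whether miR-304-5p changed, and its calls under each scaling are given below.

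miR-12-5p, the most abundant member, missed the threshold in both mutants. It had 4329 and 4919 counts in mei-p26, 2259 and 4010 in wh7, and 2961 and 2537 in w1118, or 17739.5 and 17041 CPM in mei-p26, 15403.5 and 18039 CPM in wh7, and 22098 and 18179.9 CPM in w1118. Both mutants lay below w1118 in every library, though the highest wh7 library and the lower w1118 library were nearly equal. The log2 fold change was -0.21 ± 0.23 in mei-p26 (edgeR adjusted p = 0.490; interval -0.68 to 0.26) and -0.27 ± 0.23 in wh7 (adjusted p = 0.491; interval -0.74 to 0.21). With total-count scaling the mei-p26 value turned to 0.063, and without w1118 replicate 2 it was -0.64 with an adjusted p of 0.0388.

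miR-283-5p, from the first hairpin of the intron, did not pass the test in either mutant. It had 1314 and 1455 counts in mei-p26, 789 and 1370 in wh7, and 741 and 702 in w1118. Scaled values were 5385 and 5041 CPM in mei-p26, 5379.99 and 6163 CPM in wh7, and 5530.1 and 5030.5 CPM in w1118, so that the genotypes overlapped. The log2 fold change was -0.018 ± 0.23 in mei-p26 (edgeR adjusted p = 0.958; interval -0.51 to 0.47) and 0.13 ± 0.24 in wh7 (adjusted p = 0.775; interval -0.36 to 0.62). Its sign in mei-p26 turned with total-count scaling, to 0.25.

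**Figure D3:**
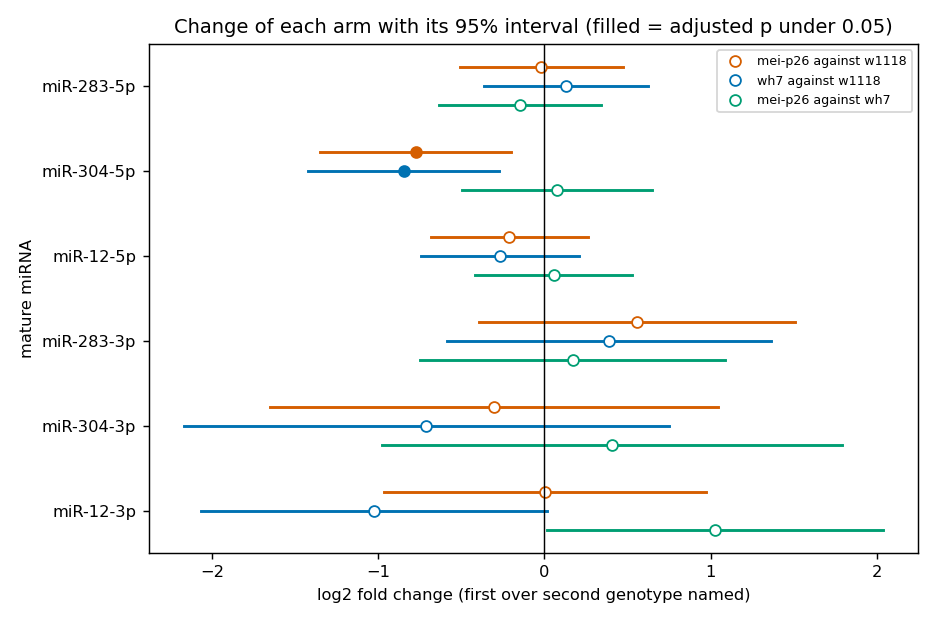
Log2 fold change with its 95% interval (x axis) of the 6 arms (y axis) in mei-p26 against w1118, wh7 against w1118 and mei-p26 against wh7, filled where adjusted p is under 0.05. miR-304-5p is the filled member, at -0.78 and -0.85 in the mutants against w1118, and the 3p arms have the widest intervals.

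All 6 member rows passed the filter on low counts, and 1 of 6 (16.7%) was called in mei-p26 against w1118, where 34.0% of all 150 rows were called, 21.3% as higher and 12.7% as lower. In wh7 against w1118 it was again 1 of 6, where 15.3% of all rows were called, 11.3% as higher and 4.0% as lower. The share of members called was below the background in mei-p26 and close to it in wh7, and nothing is read from it. Between mei-p26 and wh7, where 27.3% of all rows were called (12.7% higher, 14.7% lower), edgeR called 0 of 6 members, 1 had an unadjusted p under 0.05 (miR-12-3p), and DESeq2 called 0. The libraries of 3 of 6 members did not overlap in CPM between mei-p26 and w1118, 1 higher and 2 lower, beside 65.3% of all rows, 36.0% higher and 29.3% lower. Between wh7 and w1118 it was 4 of 6, all lower, beside 59.3% of all rows, 34.0% higher and 25.3% lower. Between mei-p26 and wh7 it was 1 of 6, higher, beside 60.7% of all rows, 33.3% higher and 27.3% lower. The members' median log2 fold change was -0.11 in mei-p26 and -0.49 in wh7, beside 0.084 and 0.078 over all rows. Among other small clusters the medians in mei-p26 and in wh7 were 0.16 and 0.30 for miR-275 with miR-305, 0.26 and 0.37 for miR-11 with miR-998, and 0.22 and 0.12 for miR-277, miR-34 and miR-317. Whether the cluster differs from these was not tested.

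The balance between members can be read within a library, where scaling cancels. miR-304-5p over miR-283-5p was 0.559 and 0.664 in mei-p26, 0.480 and 0.561 in wh7, and 1.22 and 0.826 in w1118. No mutant library reached either w1118 library. The w1118 duplicates themselves lay farther apart than counting error, with 95% Wilson intervals of 1.105 to 1.34 and 0.740 to 0.922, so these intervals do not measure the difference between genotypes. The mean log2 ratio minus that of w1118 was -0.72 in mei-p26 and -0.95 in wh7.

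miR-12-5p over miR-283-5p was 3.29 and 3.38 in mei-p26, 2.86 and 2.93 in wh7, and 3.996 and 3.61 in w1118, again with no overlap, and here mei-p26 also lay wholly above wh7. Against miR-12-5p, miR-304-5p stood at 0.170 and 0.196 in mei-p26, 0.168 and 0.192 in wh7, and 0.305 and 0.229 in w1118. Over the 9 comparisons of these ratios the 2-sided exact permutation test gave p = 0.333 for each of the 7 without overlap (Benjamini-Hochberg adjusted p = 0.429), which is the smallest p that 2 against 2 libraries allow. Ratios without overlap were common: among all 1128 pairs of 48 miRNAs with at least 100 counts in every library they made up 64.9% in mei-p26 against w1118, 59.1% in wh7 against w1118 and 64.1% in mei-p26 against wh7.

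**Figure D4:**
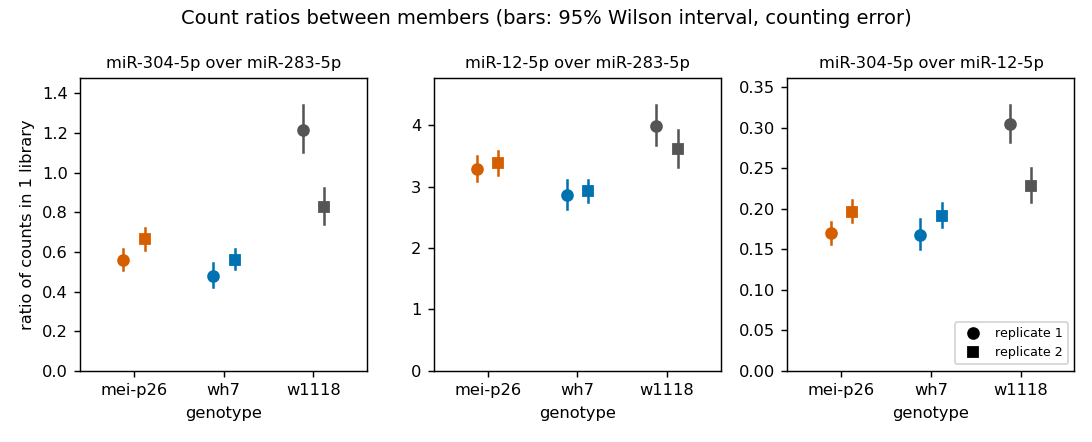
Ratio of counts within a library (y axes, from 0) for the 3 pairs of 5p arms in mei-p26, wh7 and w1118 ovaries (x axes), with 95% Wilson intervals for counting error. miR-304-5p over miR-283-5p is at most 0.664 in the mutants and at least 0.826 in w1118.

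The 3p arms, the less retained strands of the hairpins, were rare and their values imprecise. miR-12-3p had 41 and 107 counts in mei-p26, 22 and 26 in wh7, and 33 and 41 in w1118, or 168 and 371 CPM in mei-p26, 150.0 and 117 CPM in wh7, and 246 and 294 CPM in w1118. The mei-p26 libraries lay on both sides of w1118, and both wh7 libraries lay below all others. The log2 fold change was 0.0030 ± 0.46 in mei-p26 against w1118 (adjusted p = 0.995), -1.03 ± 0.50 in wh7 against w1118 (adjusted p = 0.178) and 1.03 ± 0.48 in mei-p26 against wh7 (adjusted p = 0.136). Without mei-p26 replicate 1 the last of these was 1.46 with an adjusted p of 0.0150, and without mei-p26 replicate 2 it was 0.39 with an adjusted p of 0.643.

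miR-283-3p had 67 and 91 counts in mei-p26, 51 and 41 in wh7, and 22 and 33 in w1118. Both mei-p26 libraries were above w1118, with 275 and 315 CPM in mei-p26 against 164 and 236 CPM in w1118, while wh7, at 348 and 184 CPM, overlapped both. Its log2 fold change was 0.56 ± 0.46 in mei-p26 (adjusted p = 0.358) and 0.39 ± 0.47 in wh7 (adjusted p = 0.625). miR-304-3p had 7 and 27 counts in mei-p26, 8 and 9 in wh7, and 12 and 9 in w1118, and its log2 fold changes of -0.30 ± 0.65 in mei-p26 (adjusted p = 0.756) and -0.71 ± 0.70 in wh7 (adjusted p = 0.566) leave room for a change in either direction.

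The 5p arm outnumbered the 3p arm in every library and hairpin. The ratio of 5p to 3p counts ran from 15.5 to 33.7 for mir-283, from 35.8 to 105 for mir-304 and from 46.0 to 154 for mir-12 over the 6 libraries. For mir-12 it was 106 and 46.0 in mei-p26, 103 and 154 in wh7, and 89.7 and 61.9 in w1118, so wh7 lay above w1118. How many of all hairpins had arm ratios without overlap was not counted, so nothing is read from this. On the log2 scale the arm ratio of mir-12 differed by -0.082 ± 0.49 in mei-p26 (limma adjusted p = 0.908) and by 0.74 ± 0.49 in wh7 (adjusted p = 0.422) from w1118. For mir-304, whose 5p arm was called lower in the reported fit, the arm ratio differed by -0.17 ± 0.55 in mei-p26 (limma adjusted p = 0.867) and -0.16 ± 0.55 in wh7 (adjusted p = 0.851). For mir-283 it differed by -0.56 ± 0.47 in mei-p26 (adjusted p = 0.480) and -0.21 ± 0.47 in wh7 (adjusted p = 0.851). Over 50 hairpins the limma test called 2.00% in mei-p26 against w1118, 2.00% in wh7 against w1118 and 0.00% between the mutants. In each comparison 0 of 3 cluster hairpins were called, and 0 had an unadjusted p under 0.05. Of all 50 hairpins, 8 had an unadjusted limma p under 0.05 in mei-p26 against w1118. It was 11 in wh7 against w1118 and 5 between the mutants.

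**Figure D5:**
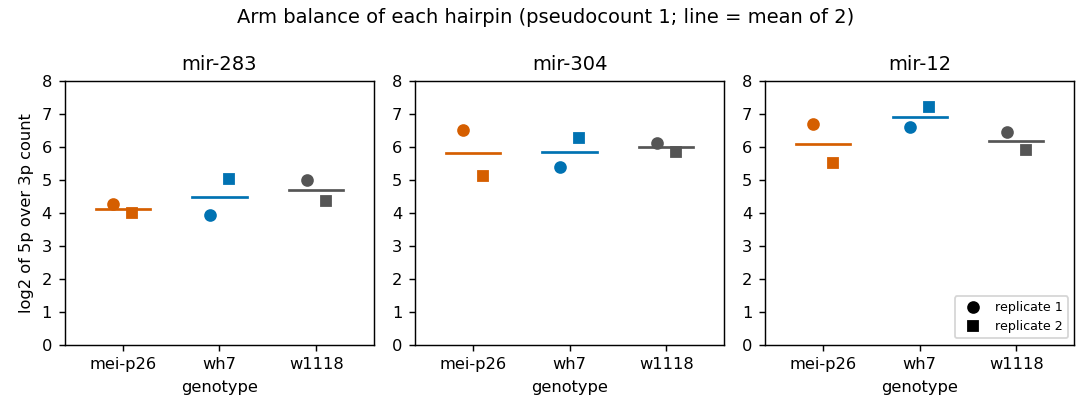
Ratio of 5p to 3p counts on a log2 scale, 1 added to each count (y axis) for mir-283, mir-304 and mir-12 in mei-p26, wh7 and w1118 ovaries (x axis), with the line at the mean of 2 libraries. Every point is above 0, the 5p arm being at least 15.5 times the 3p arm before the addition.

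Across the 6 libraries miR-12-5p was nearer in profile to each of the other 5p arms than these were to each other. Likeness was measured as the root mean square difference of log2 CPM, each miRNA centred on its own mean, and it was 0.17 between miR-283-5p and miR-12-5p, 0.29 between miR-304-5p and miR-12-5p, and 0.45 between miR-283-5p and miR-304-5p. Seen from miR-283-5p, miR-12-5p was the 8th nearest of 149 rows and miR-304-5p the 70th, and seen from miR-304-5p, miR-12-5p was the 10th nearest. The nearest rows to miR-304-5p were miR-1006-3p, from a mirtron (0.15), miR-9c-5p (0.22) and miR-79-3p (0.23), against a median of 0.73 over the other rows. Their log2 fold changes in mei-p26 and wh7 were -0.58 and -0.62, -0.67 and -0.84, and -0.58 and -0.53, in that order. Of these, edgeR called miR-9c-5p in wh7 (adjusted p = 0.0381). The rows were picked for a like profile, so their like changes are no separate result. miR-9c-5p was at 40187.5 and 28300.3 CPM in mei-p26, 29778 and 31044.5 CPM in wh7, and 69854 and 39176 CPM in w1118, and so has the same wide spread between the w1118 duplicates. Nearest to miR-12-5p were miR-996-3p (0.085), bantam-3p (0.10), which promotes growth, and miR-9b-3p (0.11), with a median of 0.52. Nearest to miR-283-5p were miR-317-5p (0.15) and miR-13b-3p, whose rows for both of its hairpins hold nearly the same counts (0.15 each), with a median of 0.48.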

How the data were processed

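Small RNA libraries were made with the QIAseq miRNA kit, per the labels' protocols. bcl2fastq 2.20, Trimmomatic and genome build BDGP5 are named in the submitters' processing notes; no aligner, counting tool, miRNA annotation or collapsing of molecular identifiers is named there or in the labels. Deposited values were raw read counts per mature miRNA and precursor, per the file headers. The authors' deposited CPM values are counts divided by their column's total, as recomputation showed to within 0.00500. The authors' deposited group means and signed fold changes, stored as a score, and their p-values come from a test not given here and were used only where named. Control columns headed W118 were taken as w1118.

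Counts were tested with edgeR 4.0.16 (R 4.3.3): TMM scaling, filterByExpr with a minimum count of 10, which kept 150 rows, 1 quasi-likelihood fit of all 6 libraries (3 residual degrees of freedom), Benjamini-Hochberg adjustment over 150 rows and a threshold of 0.05. SE is the log2 fold change over the root of its F statistic. Intervals use that SE with the total degrees of freedom of the test. These add to the 3 residual ones a part estimated over all rows. Arm ratios were tested with limma 3.58.1 on hairpins whose arms both averaged 10 counts or more. Library totals, given in the report, limit the precision of the 3p arms most. Scripts were tested on simulated data. Alternatives were other scalings and filters, DESeq2 1.42.0, a fit of the compared groups, a replicate block and leaving out each library. Lists of tissue markers are muscle, nervous system, gut, follicle cell and germline miRNAs. Named miRNAs are the members, the 3 nearest profiles of each 5p arm, the 4 most abundant other X-linked miRNAs and the lists; miRNAs sharing a seed with a member were not analysed here. Members and lists were chosen with earlier results of these data known. Chromosomes and the host gene come from an annotation of BDGP6, so no coordinates are given; 255 of 256 precursors were matched by name.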

Additional observations from a re-analysis of the deposited data

How the results depend on the processing

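In all, 14 alternatives to the test were run. The number of all rows called fell by over 1.5 times when rows averaging under 50 counts were dropped, to 26 in mei-p26 against w1118, 9 in wh7 against w1118 and 26 between the mutants, against 51, 23 and 41 as reported; fewer rows are tested there. Leaving out 1 library gave 34 to 59, 10 to 30 and 34 to 55. In mei-p26, miR-304-5p missed the threshold with total-count scaling (-0.49, adjusted p = 0.198) and with only the groups compared (-0.79, 0.0664), where 0 members were called. Leaving out 1 library gave -1.38 to -0.40 for it and 0 to 2 members called. In wh7 it missed the threshold with upper-quartile (-0.94, 0.0680) and total-count scaling (-0.75, 0.111), without the filter (-0.86, 0.0570) and without rows averaging under 50 counts (-0.84, 0.0785), with 0 members called in each; leaving out 1 library gave -1.34 to -0.34 and 0 to 1 members called. Between the mutants 0 to 1 members were called when 1 library was left out. The causes were not tested.

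Replicate numbers are shared by the genotypes, but the labels do not say that they mark a shared day or batch. The differences between replicate 1 and 2 correlated across miRNAs with r = -0.016 (mei-p26 and w1118), -0.33 (wh7 and w1118) and 0.089 (mei-p26 and wh7). With the replicate block 50, 26 and 41 rows and 1, 1 and 0 members were called; the block changed no call of a member, and miR-304-5p had -0.77 in mei-p26 and -0.84 in wh7. With the wh7 numbers crossed in the block, an alternative chosen after seeing the data, 56, 30 and 44 rows and 1, 1 and 0 members were called.

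Signs turned for values near 0. In mei-p26 against w1118, miR-12-3p was at -0.098 with RLE scaling, -0.22 with upper-quartile scaling, -0.029 without the filter, -0.10 with DESeq2, -0.0030 with only the groups compared and -0.047 with the replicate block. With total-count scaling miR-12-5p was at 0.063 and miR-283-5p at 0.25. Between the mutants, upper-quartile scaling and the fit of only the groups compared gave -0.099 and -0.088 for miR-12-5p and -0.084 and -0.078 for miR-304-5p, and total-count scaling gave 0.035 for miR-283-5p. A pseudocount of 5 gave 0.099 for the arm ratio of mir-304 between the mutants.

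Leaving out 1 library gave these ranges where a sign or call changed. In mei-p26 against w1118 they were -0.71 to 0.46 for miR-12-3p, -0.64 to -0.075 for miR-12-5p, -0.38 to 0.041 for miR-283-5p, -1.43 to 0.28 for miR-304-3p and -0.67 to 0.51 for the arm ratio of mir-12. In wh7 against w1118 they were -0.12 to 0.31 for miR-283-5p, -0.20 to 0.83 for miR-283-3p, -0.77 to 0.34 for the arm ratio of mir-283 and -0.59 to 0.28 for that of mir-304. Between the mutants they were 0.39 to 1.46 for miR-12-3p, -0.18 to 0.14 for miR-12-5p, -0.25 to 0.26 for miR-304-5p, -0.27 to 0.55 for miR-283-3p, -0.64 to 0.97 for miR-304-3p, -0.90 to 0.20 for the arm ratio of mir-283 and -0.72 to 0.42 for that of mir-304. Counts of 7 to 27 for miR-304-3p limit what depth can show of it.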

Other observations

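The cluster lies on chromosome X, and 15 of 95 rows of other X-linked miRNAs passed the filter on low counts. In mei-p26 against w1118, 9 of these 15 rows were called higher and 3 lower, beside 21.3% higher and 12.7% lower over all rows. The higher rows were those of miR-303, miR-982, miR-983, miR-984 and miR-1007, with miR-983-5p counted on the rows of both its hairpins. Several of them had few or 0 counts in w1118 and passed the filter through mei-p26 alone, so nothing is read from the count. In wh7 against w1118, 2 of 15 were called, both arms of miR-978 and both lower, beside 11.3% higher and 4.0% lower over all rows. miR-978-3p averaged 205.1 CPM in w1118 and 6.82 CPM in wh7, and miR-978-5p averaged 62.2 CPM in w1118 and 0 in wh7. Both arms were also among the 3 rows called lower in mei-p26. They had few or 0 counts in both mutants and passed the filter through w1118 alone. For that reason nothing is read from the calls of miR-978 in either mutant. The remaining row called lower in mei-p26 was miR-31b-5p, with a log2 fold change of -2.80 ± 0.45 (edgeR adjusted p = 5.71e-05). It averaged 65.2 CPM in mei-p26, 534 CPM in wh7 and 454 CPM in w1118. Of the rows with the highest counts, miR-13b-3p, on its X-linked hairpin, had a log2 fold change of -0.14 ± 0.24 in mei-p26 (edgeR adjusted p = 0.682) and 0.22 ± 0.24 in wh7 (adjusted p = 0.596). miR-983-5p had 4.45 ± 0.43 in mei-p26 (adjusted p = 8.49e-08) and 0.13 ± 0.47 in wh7 (adjusted p = 0.915). miR-13b-2-5p had 0.63 ± 0.34 in mei-p26 (adjusted p = 0.157) and 0.072 ± 0.35 in wh7 (adjusted p = 0.945). miR-970-3p had -0.94 ± 0.37 in mei-p26 (adjusted p = 0.0572) and 0.47 ± 0.36 in wh7 (adjusted p = 0.442).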
